A study of Drosophila melanogaster with 3 samples.

Results

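The peaks described here lie inside introns close to the start sites of protein-coding genes in the *Drosophila melanogaster* genome, and were bound in whole embryos by the protein CG12104. They were chosen by position alone: the summit, the point of highest enrichment, lay more than 500 bp and at most 5000 bp from the nearest protein-coding transcription start site, inside a protein-coding gene and in no exon. This held for 980 of the 4060 reproducible peaks, or 24.1% (95% Wilson interval 22.8% to 25.5%, which covers counting error only). The chromatin came from 1 transgenic line that stably makes CG12104 with GFP joined to its C-terminus, as embryos of both sexes pooled at 0 to 24 h, sheared to 200 to 800 bp, with an anti-GFP antibody used for the precipitation. There was 1 group of 3 biological replicates, and the reproducible set was selected by the irreproducible discovery rate (IDR). Whole embryos mix all cell types and stages, so a peak cannot be assigned to a cell type. Depth is unknown, because the deposited lists give no numbers of reads.

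Introns of fly genes, and first introns in particular, often hold enhancers, stretches of DNA at which transcription factors gather and from which they act on a promoter. Many fly genes also have several alternative start sites, so the intron of one transcript can lie just upstream of the promoter of another. CG12104 was counted here among the proteins with an HMG box, a DNA-binding domain. Many proteins of this family bend DNA, and those of the Sox branch favour short sites rich in A and T.

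The DNA under the strongest of these peaks is shown first, because the results below turn on its base composition and on a short word in it. The 6 sequences are the peaks of highest pooled signal among those whose sequence is printed here. Signal is the enrichment value that the authors' peak caller gave each region, on a scale of its own in each list. Each sequence runs 5′ to 3′ on the + strand of dm6, with up to 100 bp to each side of the summit, kept to bases in no protein-coding exon. Capitals mark the word CACTG or its reverse complement CAGTG, chosen after the values were seen. Each name is that of the gene whose intron holds the peak.
CG11050, chr2L:6612641-6612780: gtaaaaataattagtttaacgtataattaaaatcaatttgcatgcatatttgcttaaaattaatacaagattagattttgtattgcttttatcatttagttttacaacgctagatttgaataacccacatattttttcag
ush, chr2L:480950-481150: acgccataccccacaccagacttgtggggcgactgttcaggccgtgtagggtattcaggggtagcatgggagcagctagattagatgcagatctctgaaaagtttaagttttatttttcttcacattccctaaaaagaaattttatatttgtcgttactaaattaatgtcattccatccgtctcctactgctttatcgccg
Trl, chr3L:14759419-14759619: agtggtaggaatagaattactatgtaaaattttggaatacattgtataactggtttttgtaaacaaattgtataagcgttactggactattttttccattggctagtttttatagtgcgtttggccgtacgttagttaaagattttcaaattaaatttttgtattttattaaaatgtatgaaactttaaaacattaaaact
CG32772, chrX:4910252-4910452: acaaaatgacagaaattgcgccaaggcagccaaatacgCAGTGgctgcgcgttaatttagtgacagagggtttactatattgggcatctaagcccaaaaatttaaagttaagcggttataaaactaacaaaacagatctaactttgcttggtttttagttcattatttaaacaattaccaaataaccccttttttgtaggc
Lk6, chr3R:11760945-11761145: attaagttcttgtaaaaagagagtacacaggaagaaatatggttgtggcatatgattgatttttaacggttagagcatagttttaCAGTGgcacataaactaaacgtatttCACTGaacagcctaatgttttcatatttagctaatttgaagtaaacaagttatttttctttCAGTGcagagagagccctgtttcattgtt
Tlk, chrX:3742105-3742305: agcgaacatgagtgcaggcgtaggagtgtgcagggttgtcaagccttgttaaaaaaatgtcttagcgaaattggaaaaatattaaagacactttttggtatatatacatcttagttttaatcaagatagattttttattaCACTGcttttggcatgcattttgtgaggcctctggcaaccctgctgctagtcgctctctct
The stretch in *CG11050* is the whole of a 140-bp intron, with a GC content of 22.1%. With exon bases included, the full window of 100 bp to each side of that summit had 32.8% GC. This is the value to set beside those of the full windows that follow. The *Trl* window had 25.4% GC, the *Lk6* window 32.3% and the *ush* window 42.3%. The *Lk6* window holds the word 3 times, the *CG32772* and *Tlk* windows once each, and the other 3 lack it.

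The strongest of the 980 peaks was also the strongest of the whole reproducible set. It lay in the intron of *CG11050* printed above (region chr2L:6612478-6612908), 1039 bp downstream of the nearest start site of that gene, with a pooled signal of 2158. Its signal was 816 in replicate 1, 907 in replicate 2 and 434 in replicate 3. These values made it the first region of replicates 1 and 2 and number 2 of replicate 3, among 30000 regions in each list. The scales differ between the lists, so ranks and not signals show how the replicates compare.

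The second lay in a first intron of *ush* (chr2L:480886-481267), which encodes u-shaped, a zinc finger cofactor of GATA factors. Its nearest start site was that of another gene, *cbt*, 1362 bp away, which encodes the zinc finger transcription factor cabut. The signal was 568, 724 and 384 in replicates 1, 2 and 3, at ranks 6, 4 and 4. *Trl*, which encodes GAGA factor, had the third, 1530 bp downstream of a start site (chr3L:14759300-14759718). There the signal was 540, 622 and 296, at ranks 7, 9 and 12. All 3 peaks stood among the 10 highest of the reproducible set, and 18 of the 100 highest were in this class.

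*CG32772* held the next peak, 1250 bp downstream of its start site (chrX:4910190-4910542), with signals of 447, 537 and 298 in replicates 1, 2 and 3. In *Lk6*, which encodes a kinase of the Mnk family that phosphorylates the cap-binding protein eIF4E, the summit was 966 bp upstream of an alternative start site (chr3R:11760892-11761213), and the signals were 407, 568 and 254. *HmgZ*, which encodes an abundant HMG-box chromatin protein of the embryo, had a summit 563 bp upstream of a start site (chr2R:21703234-21703653), with signals of 406, 513 and 257. Its ranks of 18, 17 and 16 were among the steadiest of the 20 strongest. The peak of *Tlk*, the Tousled-like kinase of chromatin assembly, lay 2308 bp downstream of a start site (chrX:3742070-3742372) and had signals of 333, 474 and 231. That summit was 22198 bp from the first start site of the gene, so an internal start site placed it in the class.

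The other 13 of the 20 strongest peaks had pooled signals of 652 to 941. Some of their host genes encode chromatin proteins, and the share of such genes among all hosts was not counted. *chif* encodes chiffon, the partner of the Cdc7 kinase (signals of 346, 418 and 176 in replicates 1, 2 and 3). *wde* encodes windei, a cofactor of the histone H3 lysine 9 methyltransferase Eggless (281, 342 and 186). *Kdm2* encodes a histone demethylase, *trx* the histone H3 lysine 4 methyltransferase trithorax, and *simj* a subunit of the NuRD complex. For *Kdm2* the signals were 360, 285 and 135, and its rank was 26 in replicate 1 but 104 and 109 in the others. The *trx* peak, 3022 bp downstream of a start site, had signals of 227, 306 and 148.

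*Adf1* and *NFAT* encode transcription factors, *Baldspot* a fatty acid elongase, *Prps* a phosphoribosyl pyrophosphate synthetase and *Tre1* a receptor used by migrating germ cells. For *NFAT* the signals were 203, 296 and 175, and its rank ranged from 56 in replicate 3 to 178 in replicate 1, the lowest place taken by any of the 20. *CG9663*, *CG9837* and *CG12769* complete the 20. No replicate placed any of the 20 below rank 178. The 20 were chosen by a pooled signal from these same replicates, within a set selected for reproducibility. Their high ranks are therefore no independent check.

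**Figure D1:**
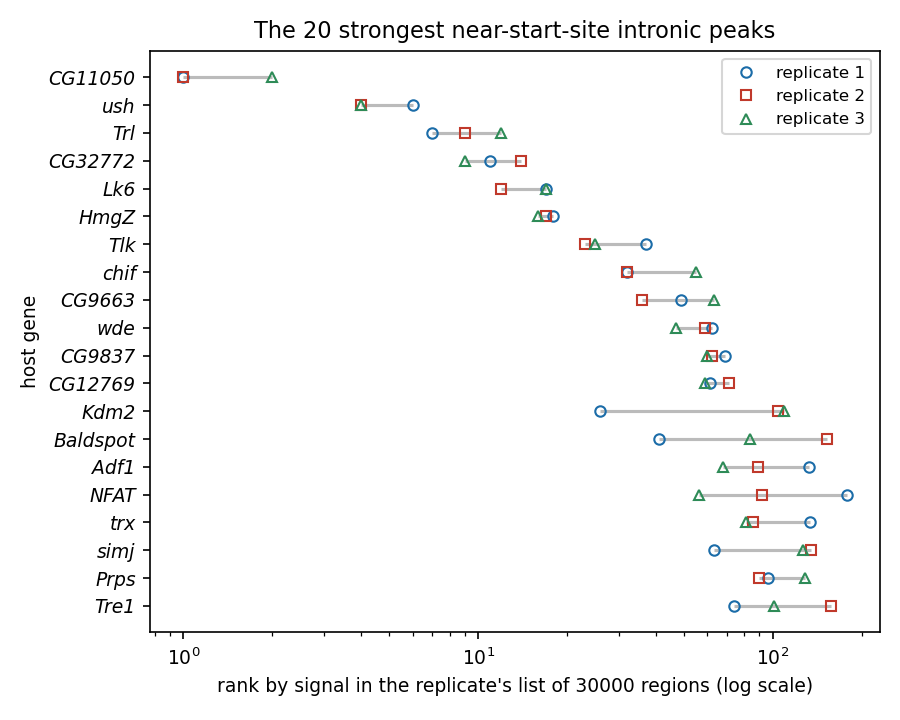
Rank of the 20 strongest near-start-site intronic peaks in each replicate's own list of 30000 regions (horizontal, log scale, 1 is the highest signal), by host gene and in order of pooled signal from top to bottom. The pooled signal that chose these peaks came from the same 3 replicates. Points are the 3 replicates and grey lines span them; the peak in *CG11050* ranks 1, 1 and 2, and wide spans, such as *Kdm2* from 26 to 109 and *NFAT* from 56 to 178, are further down.

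Over all 980 peaks the pooled signal had a median of 164 and quartiles of 126 and 239. All but 4, 2 and 1 of them overlapped a region of replicates 1, 2 and 3, in a set that was itself selected for reproducibility. The median rank was 2262.5 in replicate 1, 1825.5 in replicate 2 and 1808 in replicate 3, so replicate 1 placed these peaks lowest. Against promoter peaks (summits within 500 bp of a start site), the median signal ratio within a replicate was 0.815, 0.954 and 1.01, a mean of 0.927 ± 0.102 (SD, n = 3). The 3 ratios fell on both sides of 1 (exact two-sided sign-flip permutation test, p = 0.5; 3 replicates cannot give a p below 0.25). Against the 428 intronic peaks further than 5000 bp from a start site, the ratio was 1.11, 1.13 and 1.10, a mean of 1.11 ± 0.0126, higher in 3 of 3 replicates (exact sign-flip permutation test, p = 0.25, the smallest that 3 replicates allow).

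Support was counted as overlap with the 4060 highest regions of a replicate, as many as there are reproducible peaks. It was found for 79.3% of the near-start-site intronic peaks in replicate 1, 91.3% in replicate 2 and 84.8% in replicate 3. In all 3 replicates it was found for 645 of 980, or 65.8%, beside 66.4% of all reproducible peaks, so their share was close to the background. The difference from promoter peaks was -11.3 percentage points in replicate 1 and 3.88 and 2.59 in the others, a mean of -1.60 ± 8.39 (exact sign-flip permutation test, p = 1). Replicate 1 decided its sign: without it the mean was 3.23.

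In 630 of the 980 peaks (64.3%) the summit lay downstream of a start site of the host gene itself, and in 245 (25%) upstream of an alternative start site of the host. For the other 105 (10.7%) the nearest start site belonged to another gene, as at *ush* and *cbt*. The median distance to the nearest start site was 1522 bp, with quartiles of 913.5 and 2774. In 377 peaks (38.5%) the summit was more than 5000 bp from the first start site of its host, so alternative or neighbouring start sites placed these in the class. Within 500 bp of the start site of a noncoding gene there were 37 (3.78%), and 2 lay in an annotated transposable element. The median intron was 5006 bp long. In 168 cases (17.1%) the region overlapped another reproducible region, and 142, 140 and 140 peaks shared their matched region with another peak of the class in replicates 1, 2 and 3, so neighbouring peaks are not all separate measurements.

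At the lower bound of the distance rule, the 3 nearest peaks inside lay at 502 bp, in *CG5171*, in *dom* (the chromatin remodeller domino) and in *CG14434*, with pooled signals of 181, 136 and 625. The 3 just outside, at 500 bp, lay in *lola*, *CG42336* and *pAbp* (366, 156 and 207). At the upper bound the peaks just inside were in *ush* at 4954 bp, *NetB* at 4989 bp and *tara* at 5000 bp (327, 108 and 294). Just outside were *Pde11* at 5010 bp, *cv-c* at 5013 bp and *Lrch* at 5041 bp (186, 123 and 442). The signals on the inner and outer sides of each bound overlapped.

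The sequence that meets the rule covers 22.4 Mb, or 16.8% of the 6 chromosome arms with peaks. Of each replicate's own 4060 highest regions, 22.0%, 25.8% and 25.8% fell there (24.5% ± 2.21, SD, n = 3). The density of summits was highest closest to a start site. It was 72.9 ± 3.99 per Mb of intron at 500 to 1000 bp from a start site (SD, n = 3) and 55.2 ± 4.23 at 1000 to 1500 bp. From 4000 to 5000 bp it was 29.6 ± 3.23, and just outside the class, at 5000 to 10000 bp, 22.4 ± 3.04. In every replicate the nearest step was the highest. Intergenic sequence had fewer summits at the same distances, 34.3 ± 1.26 per Mb at 500 to 1000 bp and 21.2 ± 4.66 at 4000 to 5000 bp, and in each of these steps the lowest intronic replicate lay above the highest intergenic one.

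**Figure D2:**
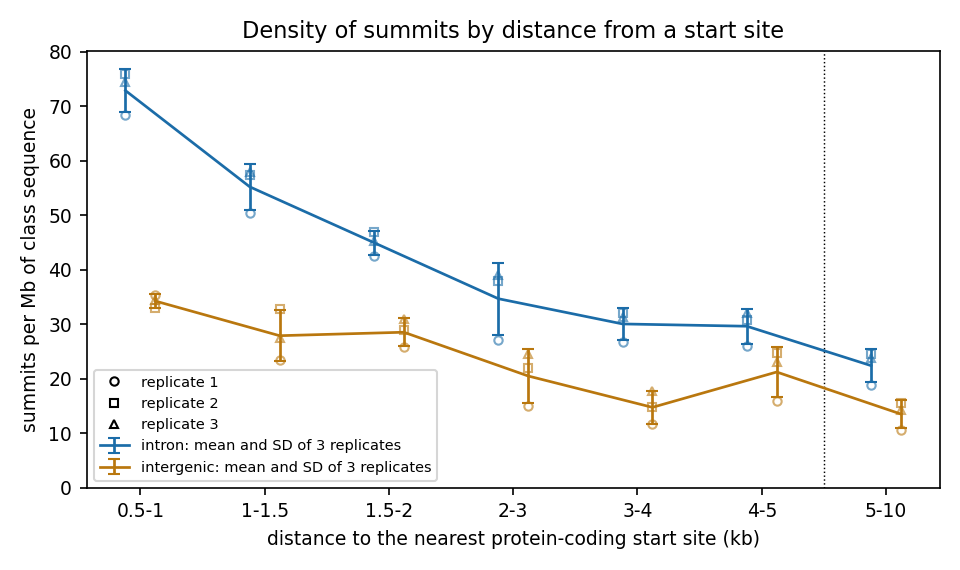
Summits per Mb of sequence (vertical) by distance to the nearest protein-coding start site in kb (horizontal), for introns and intergenic sequence, counted in each replicate's 4060 highest regions. Lines join the means, bars are 1 SD of 3 replicates, open symbols are replicates, and the dotted line marks the upper bound of the class; the intronic density falls from 72.9 per Mb to 29.6 per Mb within it.

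First introns held most of these peaks: 778 of 980, or 79.4%. They also held most of the sequence that meets the rule, 13.2 Mb beside 9.21 Mb in other introns. Counted in each replicate's highest regions, first introns had 53.3, 62.6 and 61.9 summits per Mb of sequence that meets the rule, and other introns 20.3, 24.1 and 24.8. The groups did not overlap. The ratio was 2.63, 2.60 and 2.50, a mean of 2.57 ± 0.0662, above 1 in 3 of 3 replicates (exact sign-flip permutation test, p = 0.25, the smallest possible). An intron counted as first here if it was first in any transcript. With only the first intron of the transcript with the most exons, the mean ratio was 1.63.

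First introns also had more summits per Mb than other introns in each step of distance, and in none did the replicates of the first and other introns overlap. At 500 to 1000 bp the density was 88.3 ± 5.67 per Mb in first introns and 34.6 ± 0.504 in other introns. At 4000 to 5000 bp it was 35.9 ± 4.02 against 23.7 ± 2.48. In other introns it was highest in the first step and then stayed between 19.3 and 23.7 per Mb from 1000 bp on, while in first introns each further step was lower.

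**Figure D3:**
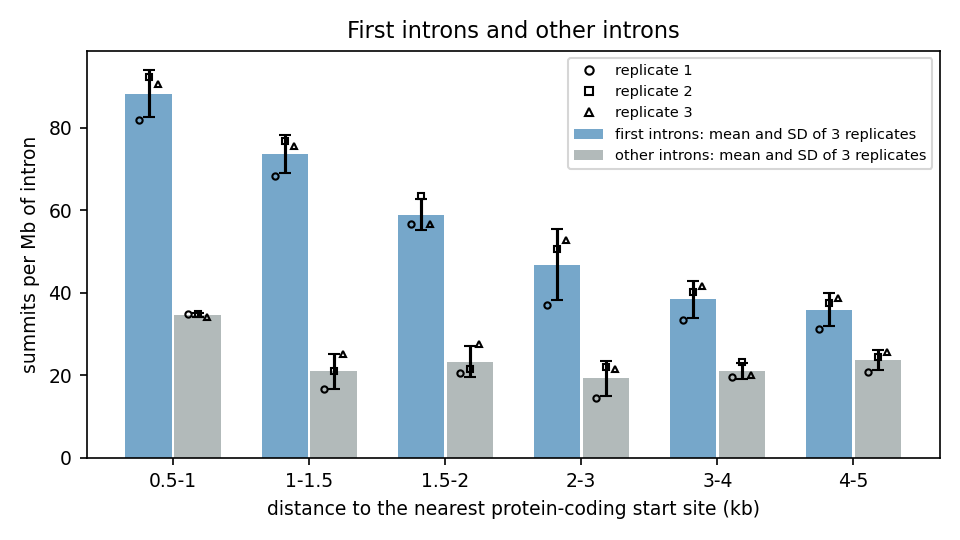
Summits per Mb of intron (vertical) in first introns and other introns, by distance to the nearest protein-coding start site in kb (horizontal). Bars are means of 3 replicates with 1 SD and open symbols are the replicates; in first introns the mean falls from 88.3 to 35.9 per Mb, and in other introns it lies between 19.3 and 23.7 per Mb beyond 1 kb.

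Among chromosome arms the X had the most reproducible peaks of the class, 234, or 52.0 per Mb of sequence that meets the rule. Arms 2R, 3L and 3R had 43.5, 44.9 and 46.5 per Mb, and 2L had 32.9. In the highest regions of replicates 1, 2 and 3 the density was 45.4, 55.6 and 52.5 per Mb on X and 40.8, 50.3 and 50.1 on 3R, so X was above 3R within each replicate, although the ranges of the arms overlap. Chromosome 4 has 0.281 Mb of the 22.4 Mb of such sequence, over all of which the density was 43.7 per Mb. On chromosome 4, 0 of 980 peaks were found, which allows a share of up to 0.306%, and 1 region of replicate 1 was in the class.

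The 980 peaks lay in 697 host genes, with every protein-coding gene that spans a summit counted, out of 9232 protein-coding genes with any sequence that meets the rule (7.55%). Of the hosts, 494 had 1 peak, 128 had 2 and 75 had 3 or more. *CG1677* (chrX:7281089-7405797), *Tlk* (chrX:3720007-3789770) and *shn* (chr2R:11159086-11217394) had 11 each. *CHES-1-like* had 10 and *CG14434* had 8. Schnurri, the product of *shn*, is a zinc finger factor of the BMP pathway, and *CHES-1-like* encodes a forkhead factor. The pooled signals ranged from 145 to 521 in *CG1677*, from 108 to 1029 in *Tlk* and from 107 to 492 in *shn*, so the span of a single gene held both strong and weak peaks. The span of *CG1677* also holds start sites of other genes. Its peak of 521 lay 792 bp downstream of the start site of *Dok*, which also spans it. Those of 436 and 304 were nearest to the start site of *brk*, at 814 and 605 bp. Of all 980, 232 had another peak of the class within 1000 bp and 450 within 5000 bp.

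Many host genes also had a peak at their own promoter. This was so for 277 of 697 hosts, or 39.7%, beside 22.2% of all genes with sequence that meets the rule and 20.7% of those with no peak of the class. With a promoter window of 200 bp the share of hosts was 19.8% and that of all such genes 14.0%. The share of genes that were hosts differed with the amount of sequence that meets the rule, from 0.576% of genes with up to 1000 bp of such sequence to 34.8% of those with more than 8000 bp. Among genes with 4000 to 8000 bp of it, 38.4% of hosts and 18.5% of the others had a promoter peak, and above 8000 bp 45.0% and 22.1%. The share was higher for hosts in each of the 5 ranges of this amount. In the lowest range, up to 1000 bp, it was close, 24.2% (8 of 33 hosts) against 20.9%. The shares by range used the promoter window of 500 bp only.

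Genes of signalling pathways and of chromatin were followed by 19 lists, chosen with earlier results of these data known. Of the hosts, 99 (14.2%) were on at least 1 list, beside 4.77% of all genes with sequence that meets the rule. Most lists hold genes with more such sequence than the median of 0.465 kb over all those genes, so their host shares are set here beside peaks per Mb, for which the value over all genes was 43.7. Density also differed with distance to a start site and between first and other introns, as given above, and the lists were not adjusted for either. Overlapping peaks were counted separately. Because the lists were not chosen independently of these data, the counts only describe them and carry no test.

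Among regulators of chromatin, 7 of 31 Polycomb and trithorax genes were hosts, with 15 peaks, or 148 per Mb. Besides the *Trl* and *trx* peaks above, *ph-p*, a subunit of the PRC1 complex, had a peak 1293 bp downstream of a start site with signals of 111, 126 and 54.0 in replicates 1, 2 and 3. *psq*, which encodes a GAGA-binding factor, had 115, 104 and 52.5. Of 12 genes of insulator and architectural proteins only *Trl* was a host, with 3 peaks. Among the HMG-box and Sox genes, the family in which CG12104 was counted, 4 of 14 were hosts with 4 peaks, 61.3 per Mb: *HmgZ* and *HmgD*, whose shared locus had both a strong and a weaker peak (pooled signals of 1173 and 161), *bbx* (319) and *Dsp1* (238), which encodes an HMG-box co-repressor.

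Kinases from different pathways gave 14 hosts of 37 genes and 36 peaks, or 150 per Mb, of which 11 lay in *Tlk*. *Mekk1*, a stress kinase of the MAPK cascade, had signals of 206, 323 and 130 in replicates 1, 2 and 3, and *Btk*, a Tec-family tyrosine kinase, 152, 195 and 107. In both, as in *Lk6* and *Tlk*, the peak lay in a first intron.

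The ligands, receptors and effectors of growth factor signalling were represented as follows. In the EGFR and FGF pathways 10 of 27 genes were hosts, with 14 peaks, 73.4 per Mb. *aos*, the secreted inhibitor of the EGF receptor, had signals of 186, 265 and 104 in replicates 1, 2 and 3, and *Raf*, the kinase below Ras, 197, 243 and 98.8 at the higher of its named peaks. *drk*, the adaptor that links receptors to Ras, had 96.2, 150 and 71.7. The start site nearest to the *drk* peak was that of another gene, *mars*, 876 bp away. For the insulin and TOR pathway 5 of 21 genes were hosts, 78.6 peaks per Mb. Its receptor *InR* had a peak 640 bp upstream of an alternative start site, with signals of 254, 240 and 136 at ranks 86, 192 and 107. *sima*, the fly HIF alpha subunit, and *REPTOR*, a transcription factor held back by TOR, had pooled signals of 286 and 190.

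In the BMP and activin pathways 5 of 20 genes were hosts and had 15 peaks, 110 per Mb, of which 11 were in *shn*. *Mad*, the transducer of BMP receptors, had signals of 127, 156 and 82.5 in replicates 1, 2 and 3. The JAK-STAT list had 4 hosts of 11 genes, 87.3 peaks per Mb, and these included *Stat92E* (90.5, 174 and 45.7), *ken* and *Socs36E*, an inhibitor of the pathway. The Wnt list had 6 of 24 and 73.1 per Mb. The 2 strongest peaks in *arr*, the LRP co-receptor, overlapped the same region in each replicate, with signals of 110, 134 and 46.8. Their nearest start site was that of another gene, *CG43192*. *Notum*, a secreted Wnt inhibitor, had a pooled signal of 238, and *nkd*, an intracellular inhibitor, 174.

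The Hedgehog list had 4 hosts of 10 genes, 65.3 peaks per Mb, and its receptor *ptc* had signals of 98.2, 79.5 and 64.5 in replicates 1, 2 and 3. *rdx*, *ttv* and *boi* were the other hosts, at pooled signals of 217, 204 and 163. The start site nearest to the *ttv* peak was that of another gene, *LamC*, 783 bp away. For the Notch pathway, 2 of 16 genes were hosts, *mam*, which encodes the co-activator mastermind (222, 256 and 93.0), and *neur*, a ubiquitin ligase for Notch ligands (87.2, 118 and 44.4). The start site nearest to that *mam* peak was that of another gene, *CG18371*, 3419 bp away. The density of the Notch list, 35.3 per Mb, was below that over all genes. None of the 16 Hippo genes was a host, although 7 of the 17 matched had a promoter peak. The Hippo genes had 0.0504 Mb of sequence that meets the rule.

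Patterning genes were compared in the same way. The segmentation list had 3 hosts of 27 genes, *ptc*, *ftz-f1* and *nkd*, and 26.2 peaks per Mb. The list of Hox genes and Hox cofactors had 3 hosts of 10 genes and 56.7 per Mb. In *Abd-B*, the posterior Hox gene, the strongest peak had signals of 99.9, 115 and 49.4 in replicates 1, 2 and 3. The next 2 overlapped the same region in each replicate (98.3, 65.6 and 39.9). *Antp* had 40.8, 60.4 and 41.0, at rank 5039 in replicate 1. Ecdysone and nuclear receptor genes had 8 hosts of 25 and 47.7 per Mb, among them *Hr3*, *Hr4* and *Eip63E* at pooled signals of 297, 258 and 250 for the strongest peak of each. Cytoplasmic ribosomal protein genes had 0 hosts of 49, but only 0.0209 Mb of sequence that meets the rule, and 63 of the 85 matched had a promoter peak.

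The summits lay in AT-rich DNA. In windows of 100 bp to each side, GC content was 35.7%, 34.7% and 35.1% in replicates 1, 2 and 3, beside 40.3%, 40.4% and 40.7% in windows of the same length centred 1000 bp away. The difference of -5.30 ± 0.618 percentage points (SD, n = 3) was negative in 3 of 3 replicates (exact sign-flip permutation test, p = 0.25, the smallest possible). All sequence of the class had 39.1% GC. The 980 reproducible peaks had 32.8% within 50 bp of the summit, 36.5% at 50 to 100 bp and 43.2% at 250 to 350 bp, above the class as a whole. Some flanks lie in exons or promoters, and with flanks in introns only, a choice made after seeing the data, the difference was -3.74. Promoter peaks had a similar GC content at the summit, 34.1%, but higher flanks, 44.7%, and intronic peaks beyond 5000 bp had 34.8% and 39.8%.

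**Figure D4:**
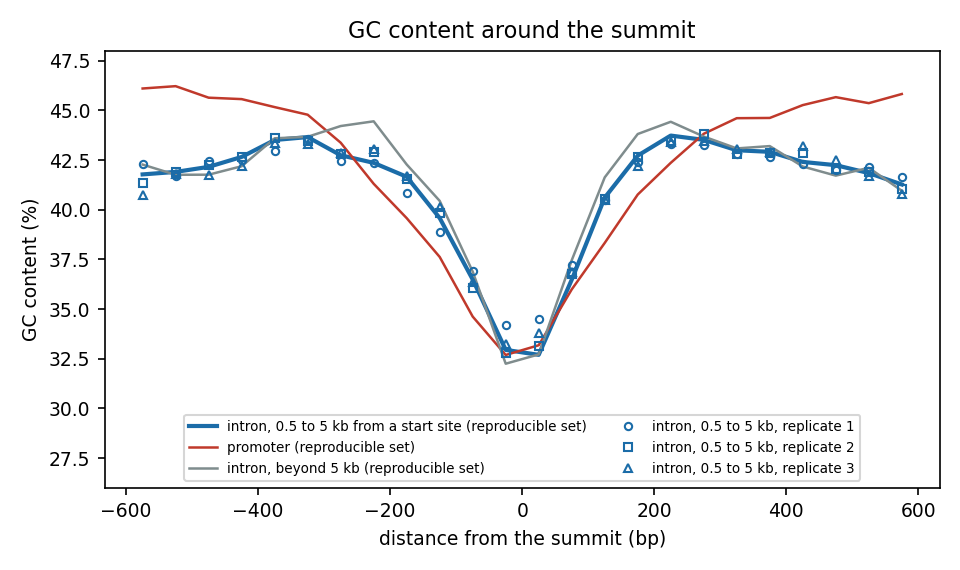
GC content (%, vertical) in steps of 50 bp by distance from the summit in bp (horizontal). Lines are the reproducible peaks of 3 classes and open symbols the 3 replicates' own highest regions in introns 0.5 to 5 kb from a start site; all dip at the summit, the near-start-site intronic peaks to 32.8% within 50 bp.

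Consensus motifs were searched on both strands in the same windows. Of 38 motifs, 2 had a share of windows at least 5 percentage points above the flanks in all 3 replicates. The Sox core, ACAAT, was in 54.1%, 53.7% and 52.6% of summit windows in replicates 1, 2 and 3 and in 45.7%, 45.1% and 44.8% of flanks, a difference of 8.24 ± 0.397 points (SD, n = 3; exact sign-flip permutation test, p = 0.25). Over all windows of this length in the class it was in 46.9%. Among reproducible peaks the Sox core was in 54.3% of windows of this class, 51.2% at promoter peaks and 50.7% at intronic peaks beyond 5000 bp. Its share was therefore close in these classes of peaks. The A run, AAAAAAA, was in 29.6%, 29.8% and 29.3% of summit windows, beside 19.8% of all class windows, a difference from the flanks of 8.24 ± 0.742 points. Both words are rich in A and T, as the summits are, and the part of base composition in these shares was not tested. In windows of 50 bp to each side no motif passed the 5-point rule, and the Sox core then differed by 4.96 points.

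The Pho core, GCCAT, the site of the Polycomb recruiter pleiohomeotic, was lower by at least 5 points in all replicates, at 24.1% ± 0.710 of summit windows against 30.3% of flanks and 35.0% of class windows. Promoter peaks had it in 25.1% of windows and intronic peaks beyond 5000 bp in 25.7%, close to the 23.8% of the 980. The word holds more G and C than A and T, and the part of base composition in this share was not tested. Some elements known from promoters were compared with promoter peaks, a choice made with their values known, so these differences carry no test. The DRE core TATCGATA was in 1 of the 980 windows, 0.102%, beside 6.62% of the windows of promoter peaks and 0.437% of class windows. In the replicates' own regions it was lower than at promoter peaks by 6.39 ± 1.55 points, in 3 of 3. Motif 1, GGTCACAC, was in 0.408% of windows and in 3.73% at promoter peaks. The BEAF-32 core CGATA, which lies within the DRE core, was in 20.7%, against 34.5% at promoter peaks and 20.8% of class windows. Intronic peaks beyond 5000 bp had the DRE core in 0.234% of windows, Motif 1 in 0.701% and the BEAF-32 core in 18.9%. The GAGA element GAGAG was in 22.6% of the 980 windows, beside 19.1% at promoter peaks, 20.9% of class windows and 25.5% of flanks. In steps of 50 bp it was in 5.66% of the 980 peaks per step within 50 bp of the summit and in 10.3% at 400 to 600 bp, a difference in the replicates of -4.11 ± 1.00 points. Promoter peaks also had less at the centre, 4.71% against 7.68%.

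Without a list of motifs, all 2080 words of 6 bases, with both strands joined, were ranked by their excess over the flanks in the 980 windows. The 10 highest consisted of A and T only. AAATAT was in 53.1% of windows and 32.7% of flanks, TAAATA in 48.0% and 28.9%, and TTAAAA in 49.5% and 31.0%. These words were also common at promoter peaks (58.0%, 52.4% and 57.6%) and at intronic peaks beyond 5000 bp (58.2%, 49.5% and 47.2%). Their neighbours in this order were AAATAA (56.2% and 37.8%), ATTTTA (45.7% and 29.6%), AAAATA (56.8% and 40.9%) and ATATTA (32.9% and 17.4%). TAAAAA (51.3% and 36.5%), TATAAA (37.4% and 22.9%) and TATTAA (32.3% and 18.3%) completed them. These words overlap in their letters, so 1 AT-rich stretch can hold several. The highest with at least 2 bases of G or C was AGTGTA at place 22, in 18.7% of windows, 7.81% of flanks and 7.99% of class windows. The next of this kind was ACAGTG (19.4% and 9.69% of flanks), followed by ACACTG (16.5% and 8.16%), CACTGA (16.6% and 9.13%) and CAGTGC (16.1% and 8.67%). These 4 words each contain CACTG on one strand, and AGTGTA overlaps it in part. AGTGTA was in 13.2% of windows of promoter peaks and 18.5% of windows of intronic peaks beyond 5000 bp.

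CACTG, singled out after these values were seen, was in 43.9%, 47.2% and 44.6% of summit windows in replicates 1, 2 and 3 and in 31.4%, 30.6% and 31.7% of flanks, a difference of 14.0 ± 2.28 points, higher in 3 of 3. Since the word was picked on the same peaks, the difference is a description without a test. It was in 28.0% of class windows, in 39.1% of promoter windows and in 44.9% of windows of intronic peaks beyond 5000 bp. The part of base composition in this share was not tested. The longer word CACTGAG was in 6.63% of the 980 windows, 1.63% of flanks, 2.01% of promoter windows and 7.48% of intronic windows beyond 5000 bp.

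The word did not peak at the summit itself. In steps of 50 bp, it was in 11.3% of the 980 peaks per step within 50 bp of the summit, in 18.3% at 50 to 100 bp and in 9.11% at 400 to 600 bp. The replicates had 15.6%, 17.5% and 16.6% at 50 to 100 bp and 9.12%, 8.56% and 8.82% at 400 to 600 bp, a difference of 7.74 ± 1.24 points, in 3 of 3. Intronic peaks beyond 5000 bp had 17.4% at 50 to 100 bp, and promoter peaks 13.0%.

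**Figure D5:**
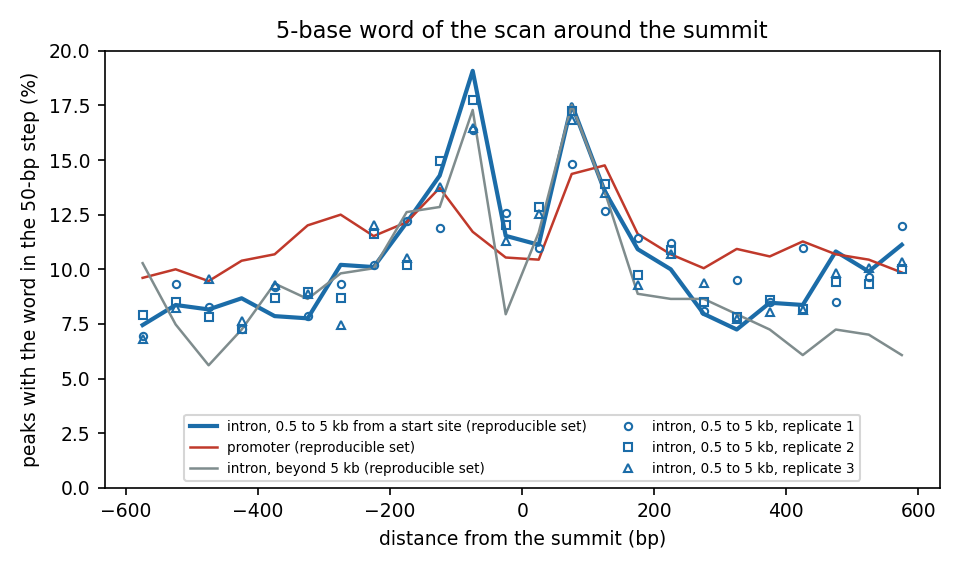
Share of peaks (%, vertical) that hold CACTG or its reverse complement in each 50-bp step, by distance from the summit in bp (horizontal). Lines are the reproducible peaks of 3 classes and open symbols the 3 replicates in introns 0.5 to 5 kb from a start site, whose share is highest at 50 to 100 bp from the summit (18.3% in the reproducible set) and lower at the summit itself (11.3%).

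The 3 strongest peaks with CACTGAG and printable sequence show where the word lies. They were chosen after the values were seen and lay in first introns of *aos*, *CG34417* and *CG1943*. The windows are 201 bp of the + strand of dm6, 5′ to 3′, with CACTG or CAGTG in capitals.
aos, chr3L:16480467-16480667: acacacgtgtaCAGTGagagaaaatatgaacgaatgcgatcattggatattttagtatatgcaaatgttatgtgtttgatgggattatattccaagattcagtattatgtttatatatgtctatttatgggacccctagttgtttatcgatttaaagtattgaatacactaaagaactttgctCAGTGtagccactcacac
CG34417, chrX:6549764-6549964: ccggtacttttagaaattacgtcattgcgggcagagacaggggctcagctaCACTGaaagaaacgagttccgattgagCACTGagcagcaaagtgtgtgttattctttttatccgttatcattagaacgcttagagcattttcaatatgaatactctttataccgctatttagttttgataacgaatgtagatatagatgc
CG1943, chr3R:7075734-7075934: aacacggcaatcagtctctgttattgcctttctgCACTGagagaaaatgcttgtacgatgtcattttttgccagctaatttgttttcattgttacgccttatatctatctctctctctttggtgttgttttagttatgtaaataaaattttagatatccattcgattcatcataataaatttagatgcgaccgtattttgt
The *aos* and *CG34417* windows hold the word 2 times each and the *CG1943* window once. Signals in replicates 1, 2 and 3 were 186, 265 and 104 for *aos*, 165, 218 and 102 for *CG34417* and 110, 156 and 94.1 for *CG1943*. A match in a window is a description of its letters and shows no binding by any named factor.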

How the data were processed

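ChIP-seq regions of CG12104-GFP in whole embryos were taken from the 3 replicates, the pooled list and the IDR set in dm6; the dm3 lists were not used here. Per the deposited text lists, each replicate's regions were called on its own alignment with 1 alignment as control. A pooled list came from the 3 replicates together and was a source of the IDR set. For the aligner and the caller, names and versions were not given in the sources used here. The authors deposited a signal for each region, on a scale particular to each list, and the -log10 of a q value. The signal of an IDR region is its pooled signal, and the lowest in the set was 105.9. The highest q value deposited for these 980 peaks was 0.0152. In 92.1% of IDR regions the summit is the centre of the region. Control alignments were not analysed here. Depth is unknown.

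Genes came from the Ensembl BDGP6 annotation, release 115, and sequence from the NCBI Release 6 genome of the same build. Coordinates are 1-based. Each summit took the first class that held of promoter (at most 500 bp from a protein-coding start site), exon, intron, other gene and intergenic. In each replicate, the highest region overlapping an IDR peak by at least 1 bp gave the peak's signal and rank there. Densities, GC content and motif shares by replicate used that replicate's own 4060 regions of highest signal, classed by their own summits. The replicates were compared by an exact two-sided sign-flip permutation test. The replicates are separate biosamples of 1 line, so their spread covers no other line. Of all reproducible peaks, 66.4% overlap one of the highest regions in all 3 replicates, so those regions share many sites. Motif windows were 201 bp and flanks were centred 1000 bp to each side. The motifs were the GAGA element and its repeat, Zelda, DRE, BEAF-32, E-boxes, Sox core and site, TCF, GATA, Motif 1, Pho, AP-1, CRE and its half-site, ETS, homeodomain, CA repeat, Mef2, Runt, Tinman, Su(H), Grainyhead, Scalloped, STAT, Fork head, Brinker, a GC box, CTCF, Ftz-F1, A run and TGCA.

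The members and the 19 gene lists were chosen with earlier results of these data known. Genes were named by rule: hosts of the 20 highest peaks, the 5 hosts with most peaks, up to 4 highest peaks for each list, 3 peaks on each side of a bound, motifs past 5 points and the 10 highest words. Sequences were printed for the 6 highest peaks not on 2R. CACTG and words with it, GAGAG in steps and promoter elements were chosen with their values known. The functions were tested on simulated data. Wilson intervals are at 95%, and a count of 0 was given the upper limit of 3 counts. The software was Python 3.11.15, numpy 2.4.6, pandas 2.3.3, scipy 1.17.1 and, for plots, matplotlib 3.10.9. Alternatives tried were other distance bounds, windows, flanks, matching and numbers of regions, and leaving out each replicate.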

Additional observations from a re-analysis of the deposited data

How the results depend on the processing

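The class held 981 peaks when exons of the host alone counted and 1025 with the start sites of all genes. Its share of the highest regions was 17.4% with a lower bound of 1000 bp and 17.3% with an upper bound of 2500 bp, since less sequence then meets the rule. Leaving out each replicate in turn gave 23.9% to 25.8%. The ratio of first to other introns was 2.55 to 2.61 without 1 replicate and 1.63 with the first intron of the transcript with the most exons. The difference in support from promoter peaks was -4.33 to 3.23 percentage points without 1 replicate, and it turned positive without replicate 1, and the cause was not tested. Without 1 replicate, the signal ratio to promoter peaks was 0.884 to 0.984 and that to intronic peaks beyond 5000 bp 1.11 to 1.12. With summits matched within 100 bp these ratios were 0.926 and 1.08, and with the 2030 IDR peaks of highest pooled signal 0.966 and 1.09. The GC difference was -5.65 to -5.10 without 1 replicate, -6.83 with windows of 50 bp to each side and -6.92 with flanks 2000 bp away. The number of motifs past 5 points was 0 with windows of 50 bp to each side, 5 with flanks 2000 bp away and 2 without any 1 replicate; the cause was not tested. The share of hosts with a promoter peak was 19.8% with a window of 200 bp. No paired analysis was possible because there is only 1 group, so no groups share replicate numbers; classes of sites were compared within each replicate. With no read counts deposited in these lists, what depth limits cannot be stated.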

Other observations

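Genes of adhesion and the cytoskeleton had 15 hosts among 44 genes and 22 near-start-site intronic peaks, 61.7 per Mb of sequence that meets the rule, beside 43.7 over all genes. In *cno*, which encodes the junction protein canoe, the signal was 255, 224 and 152 in replicates 1, 2 and 3, at ranks 85, 222 and 75. *tsr*, the fly cofilin, had 76.0, 162 and 75.5, and was far lower in replicate 1 (rank 1644) than in the others (437 and 468). *rhea*, which encodes talin, had 135, 108 and 44.1, and *mbc*, an activator of Rac in myoblast fusion, 74.5, 105 and 41.1.

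The muscle list had 5 hosts of 31 genes and 40.5 peaks per Mb. *Msp300*, a nesprin of muscle nuclei, had 196, 200 and 75.8, and the strongest peak of *kirre*, an adhesion protein of founder myoblasts, 103, 130 and 74.3. The neuronal list had 10 hosts of 34 genes, but 29.3 peaks per Mb, below the value over all genes. Its strongest peaks were in *NetB*, a guidance ligand (99.6, 96.6 and 58.4), in *elav*, a neuronal RNA-binding protein (73.6, 67.5 and 49.1), in *fru* (90.0, 79.0 and 28.3) and in *sli*, the ligand of Robo receptors (49.5, 96.7 and 30.2). The start site nearest to that *NetB* peak was that of another gene, *hog*, 1509 bp away. These lists carry no test.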
